A study of Mus musculus with 70 samples.

Results

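The 35 genes described here form the core of the mitotic transcript programme: cyclins A2, B1 and B2 with their kinase Cdk1, the activator and the E2 enzyme of the anaphase-promoting complex, mitotic kinases, kinesins, condensin subunits, kinetochore proteins, spindle and cytokinesis proteins, and the proliferation markers Mki67 and Top2a. They were chosen by name, with earlier results of these data known, and all 35 were found among the 55011 genes of the count table. RNA-seq libraries had been made from sorted cells of mouse hindlimb muscle and from whole tibialis anterior muscle, 70 libraries in 28 groups. MmSCs are the mesenchymal stromal cells of muscle and MuSCs are its satellite cells, the myogenic stem cells.

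The comparison of sorted populations used C57BL/6J mice. MmSCs, MuSCs, CD31+ cells and CD45+ cells were each taken 1 day after cardiotoxin injury and at homeostasis from uninjured muscle, with 3 libraries per population and state. MmSCs of DMDmdx mice, which lack dystrophin and have no other treatment on their labels, were sorted at 2.5 weeks (3 libraries), 7 weeks (3 libraries) and 12.5 weeks of age (2 libraries; sample titles and source names differ on this age, and that of the source names is used). Il1b-KO MmSCs (3 libraries) and Il1b-WT littermate MmSCs (2 libraries) both came from muscle 1 day after cardiotoxin. Thy1.1+ and Thy1.1- MmSCs (3 libraries each) came from mice whose genotype is labelled Il6RD, 12 hours after cardiotoxin. Whole C57BL/6J muscle at day 7 of cardiotoxin injury came from mice injected intraperitoneally with anti-Cxcl5 antibody or with IgG (3 libraries each). The last set was MmSCs of uninjured C57BL/6J muscle 2 hours after injection of Il-1b, TNFa, oncostatin M or Il-17A, of 3 pairs holding oncostatin M, or of all 4 cytokines together (also at 4 hours, 1 library, and 8 hours), each with 2 libraries, beside 2 libraries after PBS with no time on their label. The labels do not say how many animals gave each library, so p-values measure the spread between these libraries.

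Library totals ran from 2252373 to 8408842 counts. Levels are given as CPM, a gene's counts scaled to a common library total. Each experiment was fitted with edgeR's quasi-likelihood test over all its genes, and a gene was called where its Benjamini-Hochberg adjusted p was under 0.05. The 8 MmSC markers summed to 17520.4 to 22850.7 CPM in MmSCs at day 1 and 49987.6 to 61814.8 CPM at homeostasis. Pax7 and Myf5, which define satellite cells, were at 0 in MmSCs at day 1. The whole satellite cell list, 4 of 6 detected at day 1, summed to 857.5 to 1039.8 CPM in those MmSCs and 210.2 to 241.4 CPM at homeostasis. MuSC libraries held satellite cell markers at 3889.6 to 4734.6 CPM at day 1 and 7207.1 to 8542.6 CPM at homeostasis, and also MmSC markers at 807.8 to 1315.4 and 2701.4 to 2953.3 CPM. Il1b itself had 0, 0 and 1 counts in Il1b-KO libraries and 2 and 5 counts in Il1b-WT libraries, too few to check that label.

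A cell entering division builds cyclin B with Cdk1, condenses its chromosomes with condensin and Top2a, attaches them to the spindle through the kinetochore, and then destroys cyclin B through the anaphase-promoting complex. The genes for these proteins are switched on late in the cycle, in G2 and M, by the B-Myb, MuvB and FoxM1 factors, and in resting cells they are held silent by the related DREAM complex. MuvB and DREAM are known to bind a CHR element, most often TTTGAA, and NF-Y binds CCAAT boxes nearby. In muscle, satellite cells and stromal cells are largely quiescent until injury calls them back into the cycle.

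Promoters of members are shown for the 2 element types named above, and any part of these elements in the changes that follow was not tested. Of the 35 members, 30 had a RefSeq promoter of build GRCm38.p6, in 32 windows of 250 bases before to 50 after a gene start. CCAAT, on either strand, was in 71.9% of these windows, against 37.4% of the 32851 windows of all genes. TTTGAA, on either strand, was in 75.0% of members' windows, against 17.9% of all windows. Both motifs stood together in 62.5% of members' windows and in 6.95% of all. The related letters TTTAAA were in 28.1%, against 13.2% of all windows, and TTCGAA in 9.38%, against 1.56%; each of these is its own reverse complement. The 35 windows found for 30 of the 36 S phase genes held CCAAT in 62.9% and TTTGAA in 8.57%. None of the 4 motifs was in 12.5% of members' windows, against 45.1% of all windows. All these are matches of letters and not measured sites. The 8 stretches below are the 100 bases before the start, printed 5' to 3' on the gene's strand, with matches of the 4 motifs in capitals. On the opposite strand a CCAAT box reads ATTGG, and a TTTGAA element reads TTCAAA. Birc5 is shown as a member with none of the 4 in this stretch, though its window holds TTTAAA at -220.
Cdk1, chr10:69352913-69353012, minus strand: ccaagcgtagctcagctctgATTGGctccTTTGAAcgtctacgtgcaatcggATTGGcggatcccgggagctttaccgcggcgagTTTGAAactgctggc
Cdc20, chr4:118437344-118437443, minus strand: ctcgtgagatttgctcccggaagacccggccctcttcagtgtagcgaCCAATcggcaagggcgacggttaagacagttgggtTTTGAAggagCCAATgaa
Prc1, chr7:80294376-80294475, plus strand: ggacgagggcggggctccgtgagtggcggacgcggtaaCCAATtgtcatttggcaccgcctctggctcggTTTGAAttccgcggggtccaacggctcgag
Ube2c, chr2:164769829-164769928, plus strand: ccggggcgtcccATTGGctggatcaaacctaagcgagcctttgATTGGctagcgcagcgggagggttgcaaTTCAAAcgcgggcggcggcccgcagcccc
Top2a, chr11:99024190-99024289, minus strand: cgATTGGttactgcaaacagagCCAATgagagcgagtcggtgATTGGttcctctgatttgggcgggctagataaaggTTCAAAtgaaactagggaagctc
Kif11, chr19:37376282-37376381, plus strand: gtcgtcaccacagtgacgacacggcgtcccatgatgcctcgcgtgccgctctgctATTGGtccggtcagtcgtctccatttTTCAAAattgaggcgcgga
Ccnb1, chr13:100786487-100786586, minus strand: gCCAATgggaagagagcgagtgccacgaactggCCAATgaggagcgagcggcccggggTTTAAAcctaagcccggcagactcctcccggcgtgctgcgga
Birc5, chr11:117849137-117849236, plus strand: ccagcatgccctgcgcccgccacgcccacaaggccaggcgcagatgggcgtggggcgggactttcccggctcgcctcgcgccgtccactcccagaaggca

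The summed level of the 35 genes was high in injured MuSCs and MmSCs and low in the same cells at rest. MuSCs at day 1 stood first of the 28 groups by mean, with 3045.4, 841.4 and 1882.7 CPM, against 238.0, 263.3 and 60 CPM in MuSCs at homeostasis. MmSCs at day 1 held 1266.1, 242.3 and 684.4 CPM, against 18.5, 90.6 and 25.8 CPM in MmSCs at homeostasis. In neither population did the 3 day 1 libraries overlap the homeostasis libraries. CD31+ cells, sorted by an endothelial surface protein, held 70, 69.8 and 82.4 CPM at day 1, within the range of their 131.0, 146.0 and 57.0 CPM at homeostasis. CD45+ cells, the leukocytes, were lower after injury, with 113.5, 87.0 and 156.7 CPM at day 1, against 611.2, 369.3 and 584.3 CPM at homeostasis. MmSCs from mdx muscle summed to 58.4, 167.6 and 51.1 CPM at 2.5 weeks, 533.9, 411.6 and 367.9 CPM at 7 weeks, and 132.2 and 121.2 CPM at 12.5 weeks. In sorted bulk RNA, more dividing cells and more mitotic RNA per cell cannot be told apart.

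**Figure D1:**
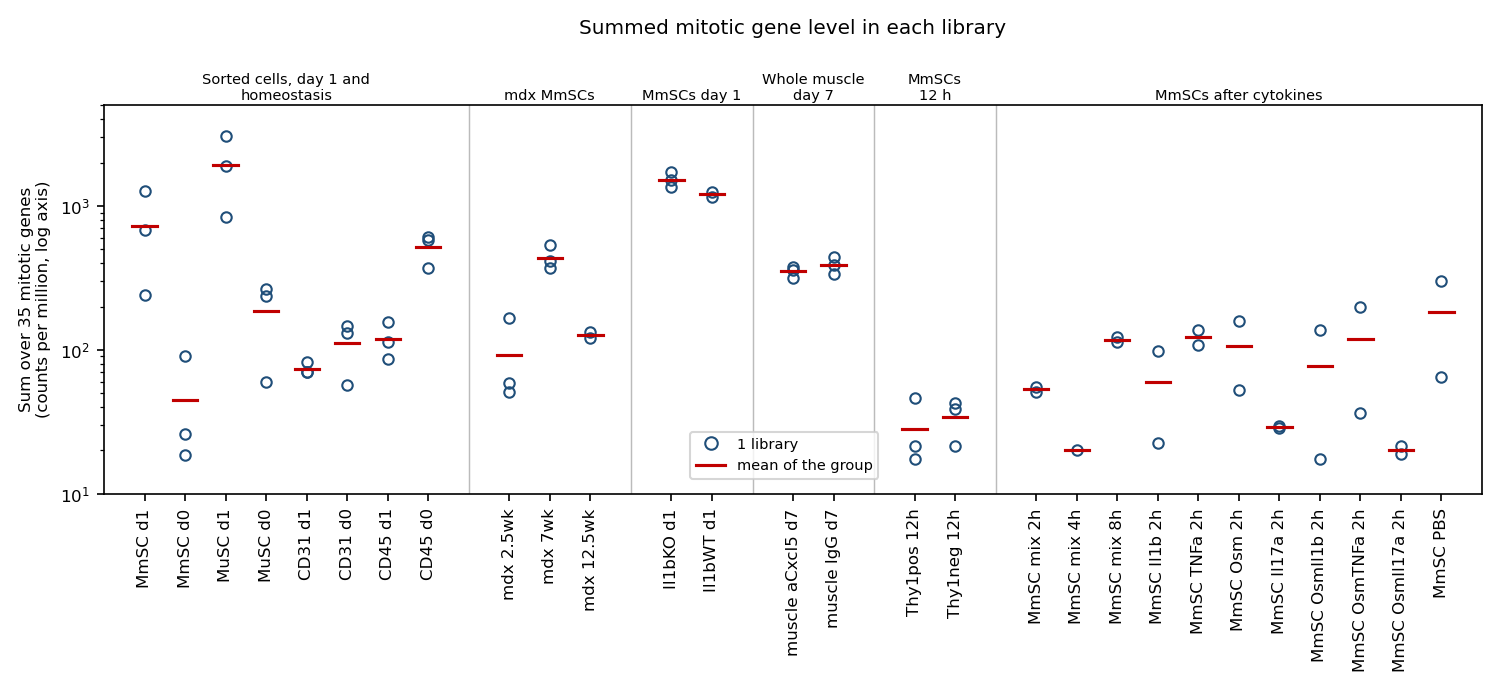
Summed level of the 35 mitotic genes in CPM (log axis) for each library (circles) of each group, with the group mean as a red bar. MuSCs and MmSCs at day 1, Il1b-KO and Il1b-WT MmSCs stand highest by mean, and MmSCs at homeostasis and at 12 hours (Thy1.1+ and Thy1.1-) are among the lowest.

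In MmSCs, nearly the whole set was higher after injury. Of the 35 members 31 were higher at day 1 by edgeR's test and none was lower, where 18.2% of the 16374 genes tested were higher and 41.8% were called in either direction. The members' median log2 fold change was 3.85, against -0.22 over all genes tested, all 35 estimates were positive, and in 28 members the libraries of the states did not overlap, as in 53.7% of all genes tested. By role, 7 of 7 mitotic kinases and checkpoint genes, 6 of 6 kinesins, 3 of 3 condensin subunits, both partners of the anaphase-promoting complex and both proliferation markers were called, and so was Birc5. Of the cyclins with Cdk1, of the kinetochore genes and of the spindle genes 3 of 4 each were called, and of the cytokinesis genes 1 of 2. Role medians of log2 change ran from 1.53 for cytokinesis and 2.98 for kinesins to 4.92 for condensin and 5.2 for Birc5, alone in its role.

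Cdk1, the kinase that starts mitosis, had 142.3, 33.7 and 84.7 CPM in MmSCs at day 1, against 0.133, 3.57 and 0.795 CPM at homeostasis. The lowest injured library was above the highest resting one, and the log2 fold change was 5.69 ± 0.749 (SE, n = 3 each; edgeR adjusted p = 2.11e-06). Its partner Ccnb1 had 15.0, 3.52 and 8.89 CPM at day 1 and 0, 1.13 and 0 CPM at homeostasis, a log2 change of 4.39 ± 1.32 (adjusted p = 0.00987 by edgeR). Ccnb2, the second B cyclin, was not called: it had 21, 0.67 and 9.63 CPM at day 1, and 0.133, 6.19 and 1.79 CPM at homeostasis, so the states overlapped (log2 1.77 ± 1.09, edgeR adjusted p = 0.205). Its estimate was 0.71 without day 1 replicate 1 and 3.51 without homeostasis replicate 2, and leaving out any one library gave no call.

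Ncaph, a subunit of condensin I, gave the smallest p of the set. It had 53.8, 22.4 and 34.8 CPM in MmSCs at day 1 and 1.33, 1.13 and 0.397 CPM at homeostasis, a log2 change of 4.92 ± 0.451 (edgeR adjusted p = 1.33e-08). Its condensin partner Ncapg had 371 counts over the day 1 libraries and 2 over the homeostasis libraries, a ratio of 179.3 with an exact counting interval of 49.3 to 1485.7. Ttk, the checkpoint kinase also called Mps1, had 174 and 3 counts, a ratio of 56.0 (18.9 to 274.4). Such intervals cover counting error only.

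Top2a, the topoisomerase that untangles sister chromatids, had 85.0, 17.1 and 52.8 CPM in MmSCs at day 1 and 0.931, 3.94 and 0.199 CPM at homeostasis (log2 4.68 ± 0.782, edgeR adjusted p = 4.36e-05). Mki67, which coats mitotic chromosomes, had 43.7, 5.86 and 20.2 CPM at day 1 and 0.399, 3.38 and 1.99 CPM at homeostasis (log2 3.42 ± 0.965, adjusted p = 0.00653 by edgeR). In both genes replicate 2 of the injured MmSCs was the low one and still lay above every resting library. Without day 1 replicate 1 the call of Mki67 was lost, at log2 2.56 with an edgeR adjusted p of 0.0576.

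Among the regulators of mitosis, Birc5, the survivin subunit of the chromosomal passenger complex, had 65.5, 9.04 and 33.9 CPM in MmSCs at day 1 and 0.266, 2.06 and 0.199 CPM at homeostasis. Its log2 change was 5.2 ± 0.999, close to that of its partner kinase Aurkb at 5.53 ± 1.03 (edgeR adjusted p = 0.00021 and 0.000158). Plk1, the polo-like kinase of mitotic entry, was higher by 4.62 ± 1.04 and Cdc20, the activator of the anaphase-promoting complex, by 2.72 ± 0.701 on the log2 scale (edgeR adjusted p = 0.00105 and 0.0033). The kinetochore gene Ndc80 was higher by 4.50 ± 0.789 and the kinase gene Melk by 5.52 ± 1.01. Without homeostasis replicate 2, the resting library with the most mitotic RNA, the log2 estimates of Ccnb1, Aurkb, Ndc80 and Cdc20 were 8.54, 8.78, 7.04 and 4.14. The resting libraries then left held Ccnb1 at 0 CPM, and Aurkb and Ndc80 at 0 and 0.133 CPM. The sizes for Ccnb1, Aurkb and Ndc80 are therefore not reliable fold changes.

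Beside Ccnb2, 3 more members missed the threshold in MmSCs. Nusap1, a spindle microtubule protein, had 6.45, 2.18 and 7.23 CPM at day 1 and 0.266, 0.751 and 1.99 CPM at homeostasis (log2 2.21 ± 0.914, edgeR adjusted p = 0.0569). Ect2, the exchange factor that sets the cleavage plane, had 3.5, 2.18 and 2.78 CPM at day 1 and 0.532, 2.25 and 0 CPM at homeostasis (log2 1.33 ± 0.871, adjusted p = 0.236 by edgeR). Cenpa, the centromeric histone H3, had 12.2, 1.17 and 5.93 CPM at day 1 and 0.532, 5.44 and 3.78 CPM at homeostasis (log2 0.83 ± 0.801, edgeR adjusted p = 0.432). Levels of the 3 genes were low, and those of Ect2 and Cenpa overlapped between states. Without day 1 replicate 1 the estimate for Cenpa was -0.08, and without homeostasis replicate 2 Ect2 was called (log2 3.00, edgeR adjusted p = 0.0357).

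The rest of the division programme was higher in injured MmSCs as well. Of 44 other mitotic genes 37 were higher and 1 was lower by edgeR's test, with a median log2 change of 3.50, and Cdca5, which holds sister chromatids together until anaphase, averaged 23.3 CPM at day 1 and 0.173 CPM at homeostasis. All 36 S phase and replication genes were higher (median 3.61), among them the helicase subunit Mcm3 by 4.58 ± 0.191 and the sliding clamp Pcna by 2.77 ± 0.182 on the log2 scale. Of 10 genes of G1 and growth 8 were higher, including Ccnd1 by 1.95 ± 0.201 and Myc by 1.93 ± 0.147. In the list of mitotic transcription control, which also holds E2f1, 5 of 8 genes were higher. Among them Mybl2, which encodes B-Myb, was higher by 4.85 ± 1.01. Foxm1 was higher by 1.75 ± 0.668 (edgeR adjusted p = 0.0399), a call lost without homeostasis replicate 1 or 2 or without day 1 replicate 1 or 3 (edgeR adjusted p from 0.0807 to 0.236). Without homeostasis replicate 1 the estimate of Mybl2 was 8.66. E2f1 averaged 31.2 CPM at day 1 and 32.6 CPM at homeostasis (log2 -0.34 ± 0.304, edgeR adjusted p = 0.399). Among 13 cell cycle brakes tested 5 were lower and 2 higher. The CDK inhibitors Cdkn1b and Cdkn1c were lower by -1.79 ± 0.215 and -3.22 ± 0.564, while Cdkn1a was not called (-0.52 ± 0.286, edgeR adjusted p = 0.15).

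The satellite cell list as a whole, 4 of 6 detected, summed to 857.5 to 1039.8 CPM in MmSCs at day 1 and 210.2 to 241.4 CPM at homeostasis, and myofibre markers to 1.82 to 11.4 and 110.7 to 276.5 CPM; their part in the mitotic change was not tested.

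Replicates of the injured cells kept one order in nearly all members. In MmSCs at day 1, replicate 2 was the lowest library for 35 of 35 members and replicate 1 the highest for 34. In MuSCs at day 1, replicate 2 was again the lowest for 35 of 35 and replicate 1 the highest for 35 of 35. The labels do not say that equal numbers share an animal or a day. In MmSCs at homeostasis, replicate 2 was the highest for 29 of 35 members.

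MuSCs, the satellite cells that later rebuild fibres, showed the same direction. Of the 35 members 33 were higher at day 1 by edgeR's test and none was lower, where 21.4% of genes tested were higher and 38.8% were called, and the members' median log2 change was 3.60, against -0.04 over all genes. In 33 members the states did not overlap, as in 51.2% of all genes tested. The 31 members called in MmSCs were all called in MuSCs, which added Ect2 and Nusap1.

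Cdk1 reached 360.5, 162.1 and 264.2 CPM in MuSCs at day 1, against 21.3, 19.5 and 5.48 CPM at homeostasis (log2 4.32 ± 0.61, edgeR adjusted p = 6.02e-06). Top2a had 199.4, 70.8 and 132.9 CPM at day 1 and 15.2, 7.55 and 2.99 CPM at homeostasis (log2 4.15 ± 0.689, edgeR adjusted p = 4.58e-05). The states did not overlap for either gene. Mki67 had 90.6, 14.8 and 54.5 CPM at day 1 and 9.92, 14.7 and 0 CPM at homeostasis (log2 3.01 ± 0.87, edgeR adjusted p = 0.00836). Day 1 replicate 2 and homeostasis replicate 2 nearly met, at 14.8 and 14.7 CPM. Without day 1 replicate 1 the calls of Mki67, Cdc20 and Ccnb1 were lost, with edgeR adjusted p of 0.0519, 0.0507 and 0.0878. Ccnb1 was also lost without homeostasis replicate 3 (0.0539) and under DESeq2's Wald test (0.132).

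Of the other members in MuSCs, Ndc80 was higher by 5.02 ± 0.748, Aurka, the kinase of spindle poles, by 4.11 ± 0.655, and Anln, the scaffold of the cleavage furrow, by 4.49 ± 0.771 on the log2 scale. Birc5 was higher by 4.70 ± 0.856, Plk1 by 3.75 ± 0.83, Cdc20 by 2.47 ± 0.654 and Ccnb1 by 3.13 ± 0.975. Ect2 had 138 counts over the day 1 libraries and 1 over the homeostasis libraries (ratio 77.1, counting interval 13.6 to 3068.6), and the chromokinesin Kif4 had 142 and 1 (79.4, 14.0 to 3156.9). Cenpa and Ccnb2 missed the threshold here too: Ccnb2 had 42.1, 4.34 and 27.2 CPM at day 1 and 9.68, 28 and 0.498 CPM at homeostasis (log2 1.27 ± 0.986, edgeR adjusted p = 0.334), and Cenpa had an estimate of 1.20 ± 0.689 (adjusted p = 0.18). The estimate of Ccnb2 was 0.65 without day 1 replicate 1 and 2.46 without homeostasis replicate 2, and leaving out any one library gave no call. Without day 1 replicate 2 Cenpa was called (log2 1.73, edgeR adjusted p = 0.0327).

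Around the members in MuSCs, 41 of 44 other mitotic genes and 36 of 36 S phase genes were higher by edgeR's test. Of the transcription factors, E2f1 was higher by 2.51 ± 0.354 in MuSCs (edgeR adjusted p = 5.79e-06), with 35.8 CPM at day 1 and 7.15 CPM at homeostasis. Its response in MmSCs minus that in MuSCs was -2.85 ± 0.467 (edgeR adjusted p = 0.00041). Foxm1 was higher by 3.01 ± 0.689 and Mybl2 by 7.01 ± 1.14. The brake Cdkn1a was higher by 2.12 ± 0.309 beside the mitotic genes. Pericyte and smooth muscle markers summed to 377.7 to 910.2 CPM at day 1 and 749.6 to 1764.8 CPM at homeostasis, and their part in these changes was not tested.

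**Figure D2:**
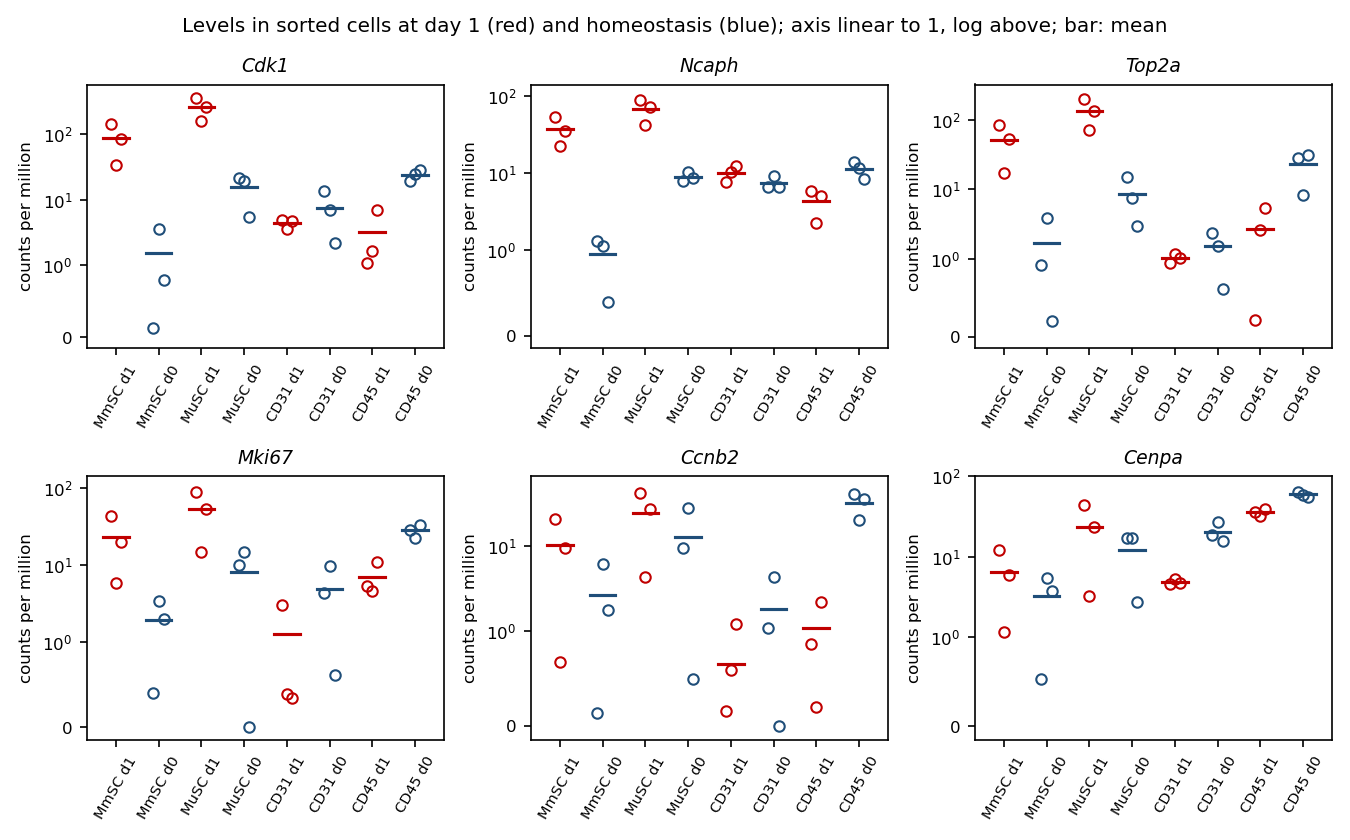
Levels of Cdk1, Ncaph, Top2a, Mki67, Ccnb2 and Cenpa in CPM (axis linear up to 1 and logarithmic above) in each library of the 4 sorted populations at day 1 (red) and at homeostasis (blue), with the mean as a bar. Cdk1 is 33.7 CPM or more in every injured MmSC and MuSC library, while Ccnb2 and Cenpa overlap between the states in both populations.

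CD45+ cells moved in the opposite direction. Of the 35 members 24 were lower at day 1 by edgeR's test, where 18.7% of genes tested were lower, and 1 was higher. The median log2 change was -2.86, or -2.68 with genes at 0 set to their bound, against -0.12 over all genes, and in 33 members the states did not overlap, as in 44.4% of all genes tested. Of the 31 members higher in injured MmSCs, 22 were lower in injured CD45+ cells.

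Cdc20 had 1.73, 0 and 2.4 CPM in CD45+ cells at day 1 and 29.3, 14.4 and 19.6 CPM at homeostasis, a log2 change of -3.70 ± 0.835 (edgeR adjusted p = 0.00145). Cdk1 had 1.08, 1.61 and 7.01 CPM at day 1 and 19.5, 24.4 and 28 CPM at homeostasis (log2 -2.61 ± 0.703, adjusted p = 0.00589 by edgeR). Every resting CD45+ library was above every injured one for both genes. The cytokinesis kinesin Kif20a fell by 5.02 ± 1.11 on the log2 scale, the spindle kinesin Kif11 by 3.95 ± 0.926, the kinetochore motor Cenpe by 4.6 ± 1.11 and Nusap1 by 4.36 ± 1.02. Ttk and Kif4 were at 0 in all 3 injured libraries and were at least 3.95-fold and 3.46-fold lower, taking 3 counts per library as the floor.

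Top2a fell by 2.78 ± 0.761, Birc5 by 3.70 ± 0.961, Ccnb1 by 4.63 ± 1.32, Ndc80 by 2.90 ± 0.714 and Plk1 by 3.09 ± 0.97 in CD45+ cells. Plk1 lost its call without homeostasis replicate 1 or day 1 replicate 1 (edgeR adjusted p = 0.0857 and 0.0717). Without day 1 replicate 3, the injured library with the most mitotic RNA, the log2 estimates of Birc5, Ccnb1 and Nusap1 were -9.89, -9.07 and -9.01. These genes were at 0 in the injured libraries then left, so such sizes are not measured fold changes. Mki67 had 5.41, 4.63 and 11.0 CPM at day 1 and 28.8, 22.7 and 33.7 CPM at homeostasis without passing the test (log2 -1.77 ± 0.842, edgeR adjusted p = 0.112). Cenpa stayed abundant, with 35.5, 32.2 and 39.2 CPM at day 1 and 63.1, 59.2 and 56.0 CPM at homeostasis, and did not pass either (log2 -0.50 ± 0.626, edgeR adjusted p = 0.579). Fitted on the CD45+ libraries alone, Mki67 and Cenpa were both called lower (edgeR adjusted p = 0.00295 and 0.0228).

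Ncapg2, a condensin II subunit, was the one member that rose in CD45+ cells. It had 26.2, 20.8 and 20.2 CPM at day 1 and 5.68, 4.6 and 4.51 CPM at homeostasis (log2 2.41 ± 0.505, edgeR adjusted p = 0.000746), while Ncaph of condensin I was called lower. Of 44 other mitotic genes 25 were lower and 1 higher, and Foxm1 fell by 3.29 ± 0.891. S phase genes were lower in 17 of 36 and higher in none: Mcm3 fell by 0.95 ± 0.171, whereas Pcna was not called (0.26 ± 0.178, edgeR adjusted p = 0.272). Ccnd1 fell by 1.70 ± 0.213 and Cdkn1a rose by 2.44 ± 0.295. The makeup of the gate moved with these values. Neutrophil markers, 5 of 5 detected, summed to 4793.4 to 7405.1 CPM at day 1 and 901.2 to 3427.1 CPM at homeostasis. Macrophage markers summed to 16834.8 to 18900.7 and 19689.3 to 26383.2 CPM, and T, B and NK cell markers to 2.42 to 23.4 and 336.0 to 1605.8 CPM. Their part in the mitotic change was not tested.

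In CD31+ cells few of these genes passed the test. By edgeR's test 2 of 35 members were lower at day 1, where 9.35% of genes tested were lower and 14.2% higher, and none was higher; the median log2 change was -0.59, against -0.04 over all genes. Prc1, the midzone microtubule bundler, had 0.632, 0.589 and 1.04 CPM at day 1 and 7.41, 8.42 and 1.52 CPM at homeostasis (log2 -2.89 ± 0.969, edgeR adjusted p = 0.0328). Cenpa had 4.58, 5.31 and 4.66 CPM at day 1 and 18.5, 27.1 and 15.8 CPM at homeostasis (log2 -2.05 ± 0.733, edgeR adjusted p = 0.0463). Neither pair of states overlapped, yet the count was 0 or 1 whichever of the 6 libraries was left out: Prc1 kept its call only without homeostasis replicate 3 (edgeR adjusted p from 0.0656 to 0.115 without the others), and Cenpa kept it in no case (0.0616 to 0.122). Other growth genes did change, with 12 of 36 S phase genes higher, Mcm3 by 1.24 ± 0.17, Myc by 4.18 ± 0.171 and Cdkn1a by 2.51 ± 0.297. Endothelial markers summed to 7087.1 to 7536.0 CPM at day 1 and 9471.8 to 9865.4 CPM at homeostasis, and MmSC markers to 4114.8 to 4580.3 and 3410.1 to 3966.4 CPM. Of the MmSC markers, 8 of 8 were detected in CD31+ cells at day 1 and 7 at homeostasis, with Dpt at 0. Pericyte and smooth muscle markers summed to 267.8 to 456.0 CPM at day 1 and 510.7 to 774.9 CPM at homeostasis, and myofibre markers to 24.3 to 60.1 and 74.3 to 100.9 CPM. General leukocyte markers summed to 7.47 to 88.2 CPM at day 1 and 3.49 to 9.98 CPM at homeostasis, and macrophage markers to 2.94 to 155.1 and 3.43 to 5.23 CPM. Their part in the mitotic values was not tested.

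**Figure D3:**
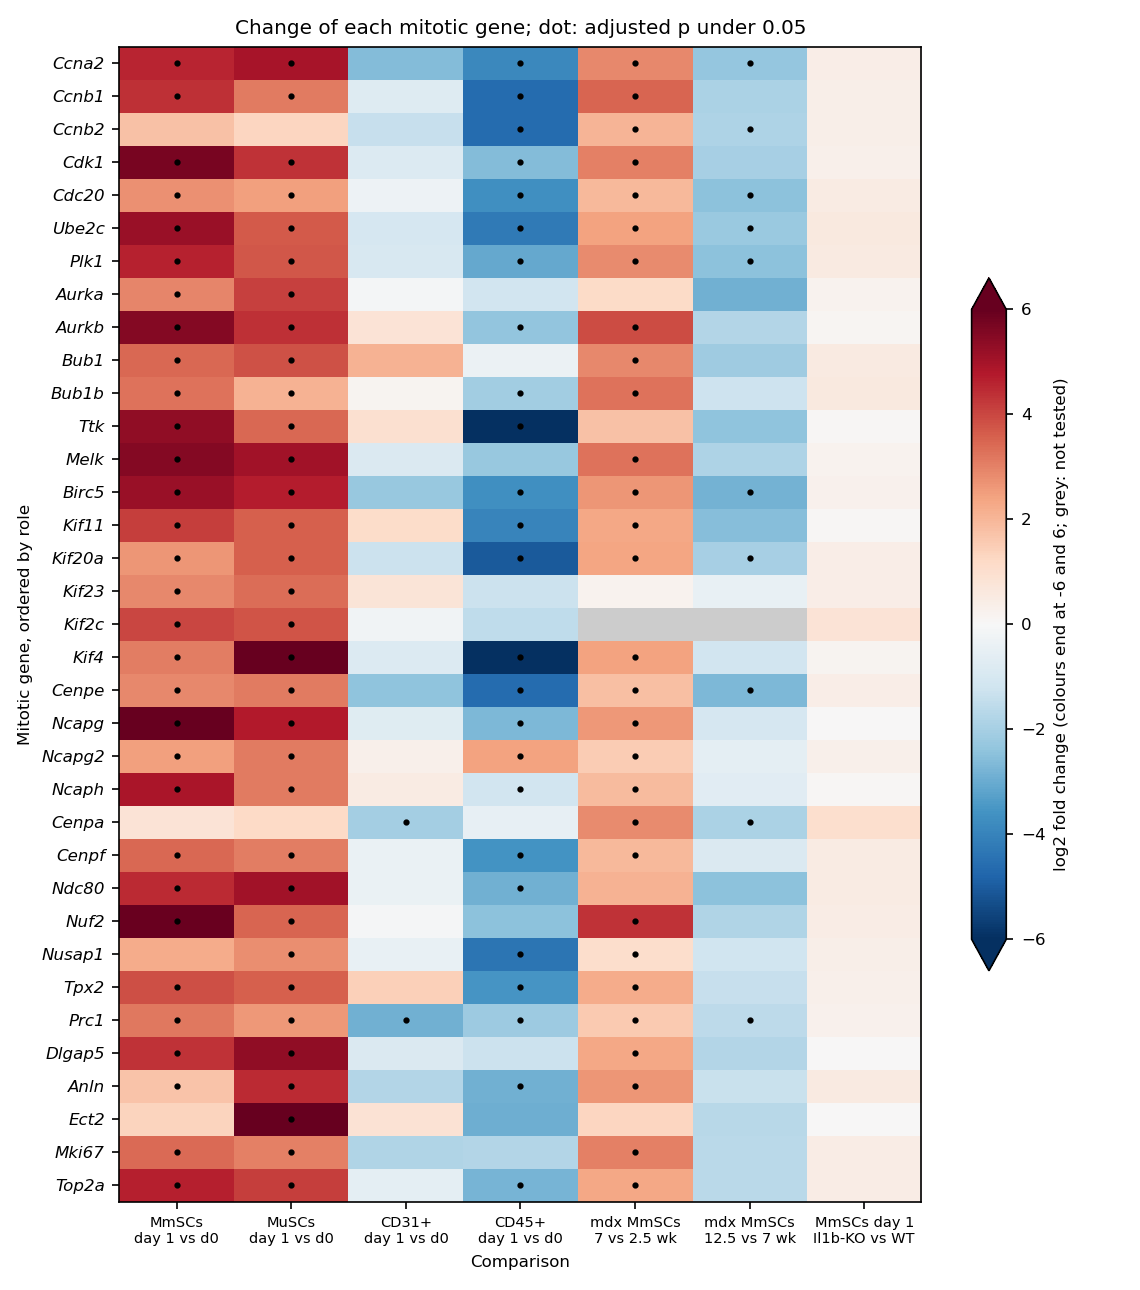
log2 fold change of each mitotic gene (lines, ordered by role) in 7 comparisons (columns), red for higher and blue for lower in the group named first, with a dot where the edgeR adjusted p was under 0.05 and grey where the gene was not tested. MmSCs and MuSCs carry 31 and 33 dots among red cells, CD45+ cells 24 among blue and 1 among red, and mdx MmSCs 29 at 7 against 2.5 weeks and 10 at 12.5 against 7 weeks.

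The injury responses themselves were compared in the same fit. The response of MmSCs exceeded that of CD45+ cells for 32 of 35 members, where 13.6% of genes tested did so, and that of CD31+ cells for 17 of 35, where 4.78% did. Against CD45+ cells the difference in log2 response was 6.09 ± 0.605 for Ncaph, 8.30 ± 1.03 for Cdk1 and 7.40 ± 1.07 for Ndc80 (edgeR adjusted p = 1.85e-07, 2.89e-06 and 1.91e-05). Against CD31+ cells it was 4.44 ± 0.602 for Ncaph, 6.51 ± 1.06 for Cdk1 and 6.05 ± 1.23 for Prc1 (edgeR adjusted p = 3.02e-05, 0.000239 and 0.00201). The count of 17 was 8 without MmSC day 1 replicate 1, 9 and 11 without CD31+ homeostasis replicate 2 and 1, and 10 without CD31+ day 1 replicate 3.

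Between MmSCs and MuSCs no member's response differed by edgeR's test, where 7.64% of genes tested differed. An unadjusted p under 0.05 was found for 3 members, and for 3252 of all 16374 genes tested. DESeq2 called 2 members. The nearest were Ncaph, with a response larger in MmSCs by 1.78 ± 0.594, and Ect2 and Anln, with differences of -4.74 ± 1.6 and -2.76 ± 1.03 (edgeR adjusted p = 0.0729, 0.0763 and 0.117). Without MmSC homeostasis replicate 1 or day 1 replicate 2 Ncaph was called (edgeR adjusted p = 0.037 and 0.0348), and without MmSC homeostasis replicate 3 Ect2 was (0.0438). The levels at day 1 were lower in MmSCs than in MuSCs for 4 of 35 members, where 16.8% of genes tested were lower, and all 35 estimates were negative with a median of -1.24. The 4 were Aurka (-1.60 ± 0.535), the E2 enzyme gene Ube2c (-2.29 ± 0.8), Cdk1 (-1.46 ± 0.515) and Anln (-1.70 ± 0.617). That count rested on single libraries: it was 13 without MmSC replicate 1, 12 without MuSC replicate 2, 1 without MuSC replicate 3, and 0 without MmSC replicate 2 or 3 or MuSC replicate 1.

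Set against the other injured populations, MmSCs at day 1 held more mitotic RNA. Against CD31+ cells 31 of 35 members were higher (23.8% of genes tested, and 51.8% were called), and against CD45+ cells 29 were higher (33.7%, and 61.6% were called) and 1 was lower. Cdk1 differed by 4.35 ± 0.644 and 4.47 ± 0.677 on the log2 scale (edgeR adjusted p = 6.43e-06 and 5.51e-06). The exception was Cenpa, at 12.2, 1.17 and 5.93 CPM in injured MmSCs and 35.5, 32.2 and 39.2 CPM in injured CD45+ cells, a difference of -2.70. These comparisons share the injured MmSC libraries.

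In mdx muscle, which degenerates and regenerates repeatedly without an outside injury, MmSCs carried most mitotic RNA at 7 weeks. No MmSCs of other mice are labelled with these ages, so age and the dystrophy cannot be told apart. Of the 34 members tested (Kif2c fell below the count filter) 29 were higher at 7 than at 2.5 weeks by edgeR's test, where 21.9% of 13160 genes tested were higher and 44.6% called, and none was lower. The median log2 change was 2.36, against -0.02 over all genes. At 12.5 weeks 10 of the 34 were lower than at 7 weeks, where 2.39% of genes tested were lower and 5.9% called, and none was higher; all 34 estimates were negative, with a median of -1.82. The 10 were Cdc20, Birc5, Prc1, Kif20a, Ccna2, Cenpe, Ccnb2, Plk1, Ube2c and Cenpa, and all of them were among the 29.

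Birc5 had 2.09, 5.31 and 2.58 CPM at 2.5 weeks, 24.7, 18.6 and 18.1 CPM at 7 weeks, and 3.67 and 1.43 CPM at 12.5 weeks. The 7-week libraries stood apart from both other ages, with log2 changes of 2.66 ± 0.356 for 7 against 2.5 weeks and -2.81 ± 0.437 for 12.5 against 7 weeks (edgeR adjusted p = 4.22e-05 and 0.00243). Cdc20 had 5.03, 6.49 and 6.23 CPM, then 28.2, 21.6 and 14.7 CPM, then 3.86 and 3.42 CPM at the 3 ages in order. Its changes were 1.92 ± 0.27 and -2.45 ± 0.341 (edgeR adjusted p = 6.29e-05 and 0.00153).

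Mki67 had 1.05, 5.12 and 1.07 CPM at 2.5 weeks, 24.2, 15.9 and 17.9 CPM at 7 weeks, and 6.18 and 5.7 CPM at 12.5 weeks; the first step was called (3.02 ± 0.435, edgeR adjusted p = 7.93e-05) and the second was not (-1.60 ± 0.452, 0.0518). Cdk1 had 0.209, 9.84 and 0.43 CPM, then 36.9, 25.2 and 22.8 CPM, then 7.15 and 6.27 CPM (3.02 ± 0.634, edgeR adjusted p = 0.00156, and -1.97 ± 0.687, 0.111). Top2a followed with 2.93, 20.7 and 2.36 CPM, 52.2, 42.9 and 33.7 CPM, and 10.2 and 16.3 CPM (2.33 ± 0.513, edgeR adjusted p = 0.00215, and -1.63 ± 0.576, 0.115). For the 3 genes neither other age overlapped the 7-week libraries. Among the rest, Aurkb was higher at 7 than at 2.5 weeks by 3.91 ± 0.594, Ccnb1 by 3.51 ± 0.601, Ccna2, the cyclin of S phase and G2, by 2.87 ± 0.467, Plk1 by 2.81 ± 0.544, Anln by 2.64 ± 0.443, Kif20a by 2.38 ± 0.378 and Ncapg2 by 1.5 ± 0.206.

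Replicate 2 of the 2.5-week mice stood apart from the others of its age, as the highest of 3 libraries for 34 of 35 members. Without it the 7 against 2.5 week count was 33, with log2 estimates of 6.46 for Cdk1, 6.84 for Aurkb, 5.59 for Ccnb1 and 4.10 for Top2a, and the count higher at 12.5 than at 2.5 weeks was 17 in place of 2 (Ncapg2, 0.90 ± 0.238, and Aurkb, 2.14 ± 0.732; 13.9% of genes tested were higher and 26.3% called). Without 2.5-week replicate 1 or 3 or either 12.5-week library that second count was 1: Aurkb lost its call in each case (edgeR adjusted p from 0.0895 to 0.229) and Ncapg2 without 12.5-week replicate 2 (0.1). The estimate of Aurkb was 1.54 without 2.5-week replicate 1 and 5.05 without 2.5-week replicate 2. Without replicate 2, the 2.5-week libraries left held Cdk1, Ccnb1 and Aurkb at 0.43 CPM or less. The sizes of those estimates therefore rest on few counts. The count of 10 at 12.5 against 7 weeks was 3, 2, 2, 4 and 5 without 12.5-week replicate 1 and 2 and 7-week replicates 1, 2 and 3, and 28 in a fit of those 2 ages alone.

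Members that missed the threshold at 7 against 2.5 weeks were Ndc80, Ttk, Ect2 (1.31 ± 0.626, edgeR adjusted p = 0.103), Aurka (1.13 ± 0.633, 0.162) and Kif23. Kif23, the kinesin of the central spindle, had 5.45, 4.92 and 3.44 CPM at 2.5 weeks, 5.37, 4.11 and 5.65 CPM at 7 weeks and 4.64 and 2.0 CPM at 12.5 weeks (7 against 2.5 weeks 0.19 ± 0.384, edgeR adjusted p = 0.716). All ages overlapped for it. Without 2.5-week replicate 2 both Ect2 and Aurka were called (edgeR adjusted p = 0.000941 and 0.0168).

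**Figure D4:**
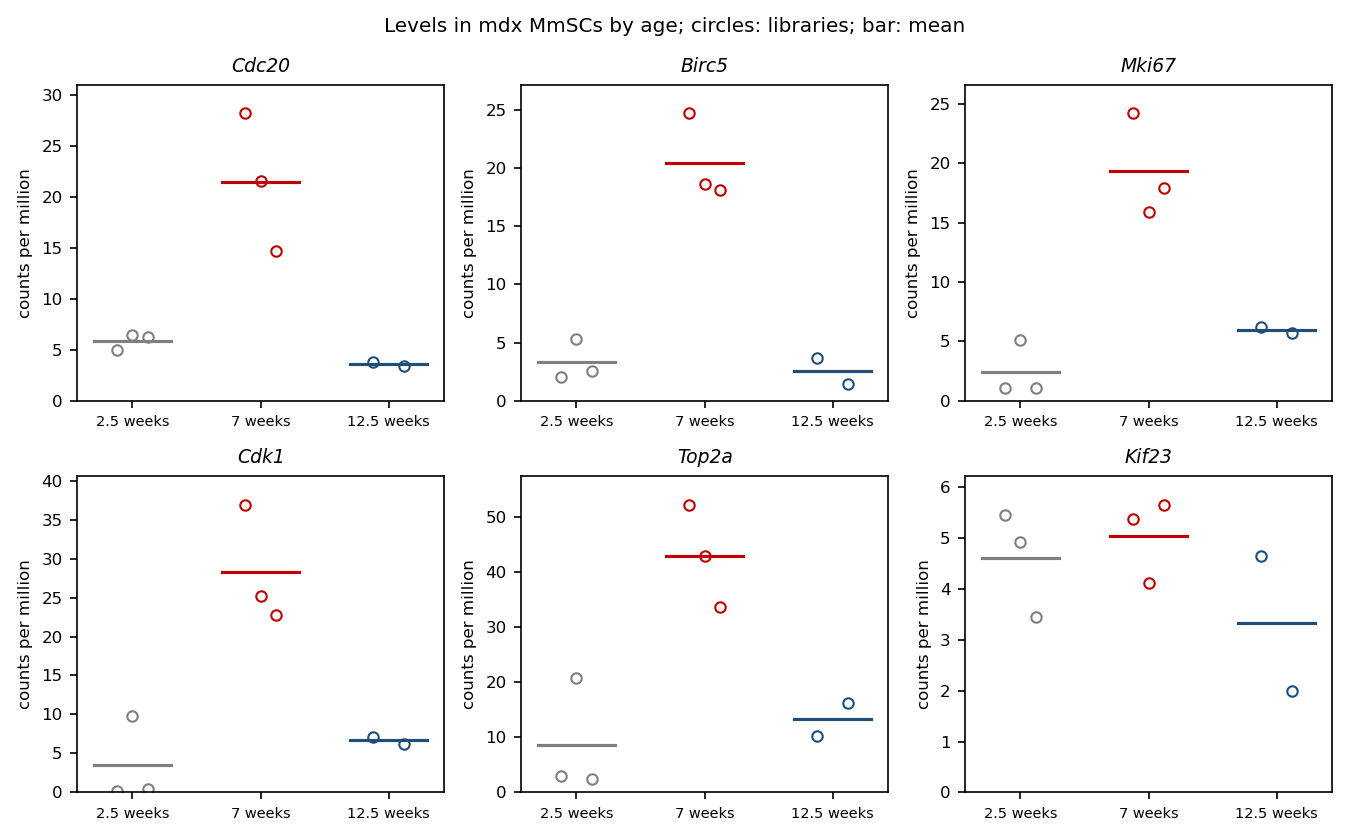
Levels of 6 mitotic genes in CPM (linear axis from 0) in each mdx MmSC library at 2.5, 7 and 12.5 weeks, with the mean as a bar. The 7-week libraries lie above both other ages for the first 5 genes and overlap them for Kif23, and 2.5-week replicate 2 is the high point of its age for all but Kif23.

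Around the members in mdx MmSCs, 28 of 41 other mitotic genes tested were higher at 7 than at 2.5 weeks, among them Racgap1, the cytokinesis GTPase activator, by 3.55 ± 0.407. S phase genes were higher in 22 of 35 and lower in 2, with a median of 1.13, including Uhrf1, which copies DNA methylation, by 3.15 ± 0.313 and Mcm5 by 2.59 ± 0.263. At 12.5 against 7 weeks 9 of 41 and 15 of 35 were lower, Uhrf1 by -2.35 ± 0.35. Of 6 genes tested from the list of mitotic transcription control none was higher and 3 were lower at 7 than at 2.5 weeks, with a median of -0.47. Foxm1 was not called at 7 against 2.5 weeks (0.84 ± 0.448, edgeR adjusted p = 0.144), though it was without 2.5-week replicate 2 (1.49, 0.0112). Cdkn1a and Cdkn1c were lower at 7 than at 2.5 weeks by -1.43 ± 0.143 and -1.75 ± 0.248, and so was Myc, by -0.93 ± 0.122. MmSC markers summed to 90698.5 to 112430.6, 102425.3 to 119884.9 and 78777.9 to 94091.4 CPM at the 3 ages, and pericyte and smooth muscle markers to 12.2 to 26.8, 66.5 to 134.4 and 27.1 to 49.8 CPM. The satellite cell list summed to 313.0 to 461.2, 553.1 to 691.3 and 645.1 to 671.4 CPM, with Pax7 at 0 at 2.5 and 12.5 weeks and Myf5 and Calcr at 0 at 7 and 12.5 weeks. Endothelial markers summed to 4.33 to 8.17, 10.8 to 14.1 and 4.44 to 9.12 CPM, and myofibre markers to 13.0 to 19.7, 2.86 to 5.2 and 3.71 to 7.92 CPM. The part of these cell types in the mitotic changes was not tested.

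Between Il1b-KO and Il1b-WT MmSCs at day 1 no member was called by edgeR's test, where 1.21% of 12102 genes tested were, 1.12% higher. All 35 estimates were positive with a median log2 change of 0.37, against 0.00 over all genes, and DESeq2 called none. Of the members 15 had an unadjusted p under 0.05, as had 11.8% of all genes tested, and 17 did not overlap between genotypes, as did 28.3% of all genes tested. The members' summed level was 1359.5, 1502.8 and 1709.8 CPM in Il1b-KO libraries and 1160.0 and 1257.9 CPM in Il1b-WT libraries. Top2a had 185.1, 208.0 and 231.7 CPM in Il1b-KO and 158.4 and 153.8 CPM in Il1b-WT MmSCs (log2 0.42 ± 0.11, n = 3 and 2, edgeR adjusted p = 0.121). Mki67 had 58.1, 56.6 and 67.1 CPM in Il1b-KO and 44.2 and 43.9 CPM in Il1b-WT MmSCs (0.47 ± 0.127, edgeR adjusted p = 0.142). Anln and Cenpa had estimates of 0.52 ± 0.146 and 1.01 ± 0.322 (edgeR adjusted p = 0.155 and 0.217), and Cdk1, with 78.3, 92.0 and 110.0 CPM against 66.8 and 83.1 CPM, overlapped. Among the wider lists 1 of 44 other mitotic genes and 1 of 36 S phase genes were called higher, Racgap1 by 1.38 ± 0.235 and the histone chaperone gene Chaf1a by 1.09 ± 0.197 (edgeR adjusted p = 0.0248 and 0.0333). Both calls were lost without any one of the 3 Il1b-KO libraries, with edgeR adjusted p from 0.0961 to 0.195, and that of Chaf1a also without Il1b-WT replicate 2 (0.0712).

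**Figure D5:**
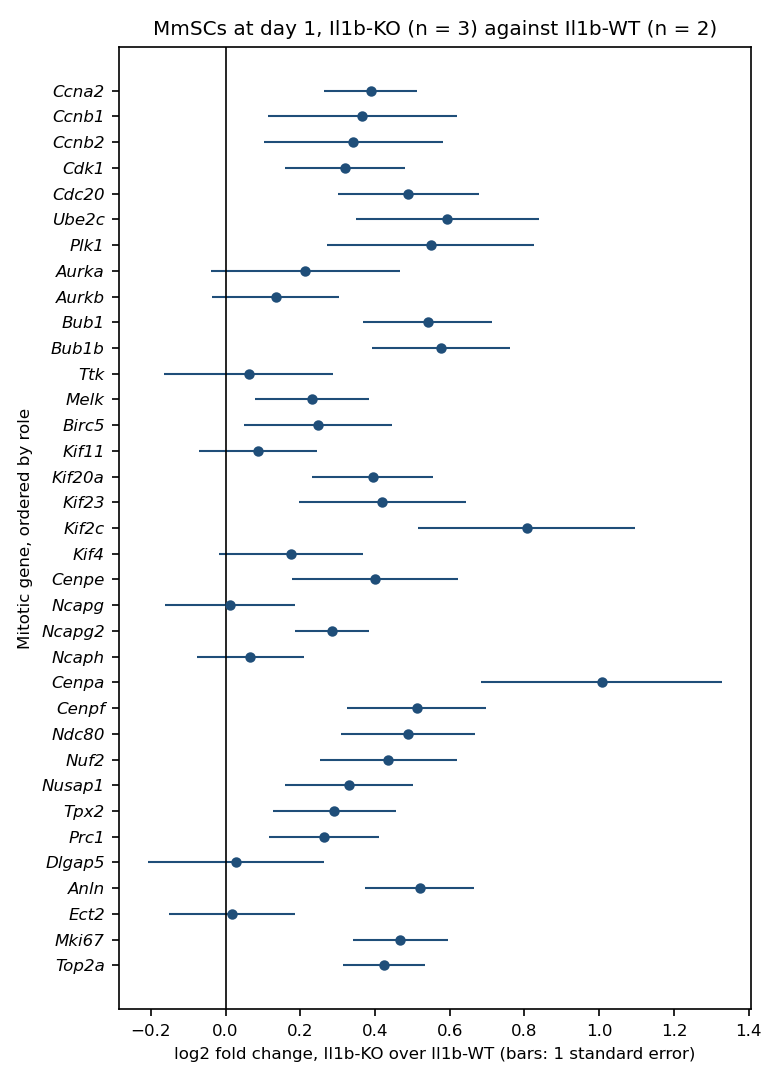
log2 fold change of each mitotic gene in Il1b-KO (3 libraries) over Il1b-WT MmSCs (2 libraries) at day 1, with 1 standard error. All 35 points lie right of 0, from near 0 to 1.01 for Cenpa, and none passed an edgeR adjusted p of 0.05.

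In whole muscle at day 7 no member was called between anti-Cxcl5 and IgG mice by edgeR, where 0.03% of 13346 genes tested were. An unadjusted p under 0.05 was found for 1 member, and for 5.77% of all genes tested. DESeq2 called no member. The members summed to 377.9, 317.2 and 358.0 CPM with anti-Cxcl5 and 335.4, 389.1 and 438.5 CPM with IgG, overlapping, with a median log2 change of -0.23. In Thy1.1+ and Thy1.1- MmSCs at 12 hours 5 of 35 members passed the count filter and none was called, nor was any gene among 11975 tested by edgeR (0%; 1258 had an unadjusted p under 0.05), and DESeq2 called no member. The members' sums were 21.5, 46.3 and 17.3 CPM in Thy1.1+ cells and 21.4, 38.5 and 43.0 CPM in Thy1.1- cells. MmSCs at homeostasis held 18.5 to 90.6 CPM in another experiment.

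After cytokine injection in uninjured mice, mitotic levels in MmSCs were low, and uneven between the 2 libraries of several groups. The members summed to 29.5 and 28.7 CPM after Il-17A, to 107.9 and 137.9 CPM after TNFa, to 97.7 and 22.5 CPM after Il-1b and to 159.4 and 52.6 CPM after oncostatin M. The 4-cytokine mix gave 50.9 and 55.4 CPM at 2 hours, 20.2 CPM at 4 hours and 113.3 and 122.5 CPM at 8 hours. The pairs of oncostatin M gave 17.3 and 138.0 CPM with Il-1b, 199.6 and 36.4 CPM with TNFa, and 19.0 and 21.4 CPM with Il-17A. After PBS they summed to 300.2 and 65.2 CPM. The fitted comparisons share the PBS libraries, of which replicate 1 held more mitotic RNA than any other MmSC library of this experiment.

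Against PBS, 1 of 35 members was lower after Il-17A, where 2.11% of 15965 genes tested were lower, 2.84% higher and 4.95% called. This was Kif20a, with 0.185 and 2.3 CPM after Il-17A and 15.9 and 4.0 CPM after PBS (log2 -3.01 ± 0.87, edgeR adjusted p = 0.0499), and leaving out any of the 4 libraries ended the call (adjusted p from 0.0503 to 0.469), with -5.59 without Il-17A replicate 2 and -1.70 without PBS replicate 1. All 35 estimates were negative after Il-17A, with a median of -3.12, or -3.02 with genes at 0 at their bound. Of the members 19 had an unadjusted p under 0.05 after Il-17A, as had 19.5% of all genes tested. After the mix, Kif4 was the only member called, at 2 hours (18% of genes tested were lower and 20.5% higher) and at 8 hours (12.9% and 15.6%): it was at 0 in the 2 libraries of each and at least 7.51-fold and 6.55-fold lower than its 4.04 and 1.92 CPM after PBS. Leaving out PBS replicate 1 or either library of the mix ended the call (edgeR adjusted p from 0.0873 to 0.115 at 2 hours and from 0.0948 to 0.139 at 8 hours). After Il-1b, TNFa and oncostatin M no member was called by edgeR, where 33.1%, 14.8% and 34.3% of genes tested were (13.7% lower after Il-1b). An unadjusted p under 0.05 was found for 1, 0 and 1 members, and for 42.2%, 27.3% and 43.3% of all genes tested. DESeq2 called no member in each. The members' median log2 changes were -1.5, -0.59 and -0.59.

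The members were not expressed in the same proportions everywhere. In MmSCs and MuSCs at day 1, Cdk1 made up 11.8% and 13.6% of all members' counts and Ccnb2 1.45% and 1.30%. In the separate Il1b experiment, Cdk1 made up 6.13% in Il1b-KO and 6.26% in Il1b-WT MmSCs at day 1, Ccnb2 1.78% in both, and Cenpa 0.8% and 0.506%. In mdx MmSCs at 7 weeks the shares were 6.50% for Cdk1 and 5.96% for Ccnb2, and in CD45+ cells at homeostasis 4.46% and 6.25%, where Cenpa held 11.3%, against 0.889% in MmSCs at day 1. Per kilobase of exon, Cdk1 averaged 17.6 and Ccnb2 6.82 CPM per kilobase in injured MmSCs, whereas Ccnb2 led in mdx MmSCs at 7 weeks with 17.1 and in resting CD45+ cells with 21.1 CPM per kilobase. Counts of Ccnb2 over those of Cdk1 were 0.148, 0.0199 and 0.114 in the injured MmSC libraries, 0.117, 0.0268 and 0.103 in the injured MuSC libraries, 0.254 to 0.318 in the Il1b-KO and Il1b-WT libraries at day 1, 0.859, 0.936 and 1.02 in mdx MmSCs at 7 weeks, and 2.09, 0.835 and 1.28 in CD45+ cells at homeostasis. Pooled over the libraries of each group, the ratio was 1.79 in MmSCs at homeostasis (43 and 24 counts) and 2.26 in MmSCs after PBS. In mdx MmSCs it was 1.83, 0.918 and 1.05 at 2.5, 7 and 12.5 weeks. It was 0.682 in MuSCs and 0.209 in CD31+ cells at homeostasis. At day 1 it was 0.123 in MmSCs, 0.0954 in MuSCs, 0.145 in CD31+ cells (11 and 76 counts) and 0.333 in CD45+ cells (16 and 48 counts). A low ratio was thus also found in injured CD31+ cells. This ratio was chosen after its values were seen and is given without a test, and several of these groups come from separate experiments.

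The balance of mitotic to replication transcripts differed as well. The members' sum over that of the 36 S phase genes was 0.191, 0.0659 and 0.134 in MmSCs and 0.312, 0.11 and 0.235 in MuSCs at day 1. At homeostasis it was 0.0516, 0.219 and 0.066 in MmSCs and 0.219, 0.223 and 0.0621 in MuSCs. The states thus overlapped within each of these populations. CD31+ cells held 0.0581 to 0.0753 at day 1 and 0.0826 to 0.212 at homeostasis. In CD45+ cells the ratio was 0.23 to 0.245 at day 1 and 0.403 to 0.633 at homeostasis. The ratio was 0.497 to 0.591 in mdx MmSCs at 7 weeks and 0.662 to 0.813 in whole muscle at day 7. Injured MmSCs of the Il1b experiment held 0.268 to 0.412, overlapping the ranges of MuSCs at day 1 and of CD45+ cells at homeostasis. The ratio, too, was chosen after its values were seen. The sorted populations share 1 experiment, while the mdx, Il1b and whole muscle libraries come from separate ones.

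Across the 28 group means, the genes whose levels correlated best with the members' sum, among 14954 outside the set that reached 5 CPM in a group, were Cdca8 (Pearson r = 0.964), Knstrn and Racgap1 (both 0.956), Neil3 (0.952) and Cdca3 (0.951). The r is a description over groups that share experiments and depth, led by the few groups with high sums.

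Counting limits touch some members. An exon of 10 of the 35 overlaps another gene of the GENCODE vM21 annotation, as for Cdc20 with Elovl1 and Ube2c with Tnnc2, and no source names the strand setting of the counting, so reads of such pairs could not be told apart. For Ccnb1, Ccnb2 and Kif4 the count table also lists a pseudogene.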

How the data were processed

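RNA-seq libraries of sorted mouse muscle cells (a fixed number of cells each, sorted in successive rounds) and of whole muscle were counted per gene. The deposited values are raw counts per gene, which the authors made with STAR 2.7.3a and featureCounts on mm10, per the submitters' processing notes; no source names the featureCounts settings. Each of the 6 experiments was fitted alone in edgeR 4.0.16 (R 4.3.3) with 1 mean per group, filterByExpr at a minimum count of 10, TMM scaling, and the quasi-likelihood test; p-values were adjusted by the Benjamini-Hochberg method over every gene in the fit, and an adjusted p under 0.05 was called. Standard errors are the log2 fold change over the square root of F. CPM are counts over the library total, and figures were drawn with matplotlib 3.10.9. Counting intervals are exact at 95%, a library at 0 was given a floor of 3 counts, and both cover counting error only.

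All 35 members could be named. Full statistics were given by rule for Mki67, Top2a, Cdk1, Ccnb1, Plk1, Birc5 and Cdc20, for up to 8 called members with the smallest p and for up to 4 tested members with the largest p. For other lists the rule took up to 4 called genes with the smallest p, and Foxm1, Mybl2, E2f1, Ccnd1, Cdkn1a, Cdkn1c, Pcna and Myc. Members and lists were chosen with earlier results of these data known. Other genes named, such as Melk, Kif23 and Racgap1 where outside that rule, were chosen after their values were seen.

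Replicate numbers are shared between groups. In Thy1.1+ and Thy1.1- cells same-numbered libraries deviated together (correlations of 0.358, 0.392 and 0.618). Libraries 1 and 2 also did so across numbers (0.264 and 0.247), and the labels state no pairs, so a pairing by number was not settled. The fit with the number as a block called no member either. In no other comparison were all same-numbered correlations above 0.1. Alternatives were DESeq2 1.42.0, its size factors in edgeR, no filter on low counts, the replicate block, fits of only the groups compared, and leaving out each library. Gene overlaps came from GENCODE vM21 and promoters from RefSeq.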

Additional observations from a re-analysis of the deposited data

Results flagged for a closer look

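The injury response differed between populations by a test of the difference itself. It was larger in MmSCs than in CD31+ cells for 17 of 35 mitotic genes, where 4.78% of genes tested did so, among them Ncaph by 4.44, Cdk1 by 6.51 and Prc1 by 6.05 on the log2 scale; leaving out 1 library moved the 17 to between 8 and 22. It was larger in MmSCs than in CD45+ cells for 32 of 35, where 13.6% of genes tested did so, among them Ncaph by 6.09, Cdk1 by 8.30 and Ndc80 by 7.40. Both sets of differences use the same MmSC libraries. No group has over 3 libraries, so none was screened for an outlying library.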

How the results depend on the processing

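Of 130 single-gene results 104 were called, and 87 of these stayed past the threshold under every alternative run. Of 1457 values, 66 lost a call, 40 gained one and 1 turned its sign, Cenpa in MmSCs day 1 against homeostasis at -0.075 without day 1 replicate 1 and up to 1.65 without homeostasis replicate 2. The share of all genes called under each alternative is not given, so the counts that follow do not compare the members with other genes. Counts of members called are given next. With no filter on low counts they were 9 and 3 for the cytokine mix at 2 and 8 hours, 14 for Il-1b, 4 for oncostatin M, 20 for Il-17A, 7 for CD31+ cells, 5 and 32 for the response of MmSCs minus that of MuSCs and of CD31+ cells, 23 for day 1 MmSCs against MuSCs, 23 and 9 for mdx at 12.5 weeks against 7 and 2.5 weeks, and 3 for Il1b-KO. Fitting only the groups compared gave 4 for the mix at 2 hours, 2 for Il-1b, 6 for Il-17A, 1 for CD31+ cells, 1 for the response of MmSCs minus MuSCs, and 28 and 1 for mdx at 12.5 weeks against 7 and 2.5 weeks. DESeq2 gave 0 for the mix at 8 hours, 0 for Il-17A, 2 for the response of MmSCs minus MuSCs, 2 for day 1 MmSCs against MuSCs and 4 for mdx 12.5 against 2.5 weeks, and its size factors in edgeR gave 2 for Il-17A. The cause of these shifts was not tested.

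Leaving out 1 library gave 0 to 6 and 0 to 1 for the mix at 2 and 8 hours, 0 to 4 for Il-1b, 0 to 2 for oncostatin M, 0 to 1 for Il-17A, 0 to 1 for CD31+ cells, 0 to 1 and 8 to 22 for the response of MmSCs minus that of MuSCs and of CD31+ cells, 0 to 13 for day 1 MmSCs against MuSCs, 2 to 5 and 1 to 17 for mdx at 12.5 weeks against 7 and 2.5 weeks, and 0 to 1 for Il1b-KO. It gave 23 to 32 for injured MmSCs, 27 to 34 for MuSCs, 19 to 25 for CD45+ cells and 22 to 33 for mdx 7 against 2.5 weeks. An arm left with 1 library is assumed to vary like the other groups.

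With the replicate block the counts were 30 for MmSCs, 33 for MuSCs, 1 for CD31+ cells, 26 for CD45+ cells, 0 for Il-17A, 1 for each time of the mix, 5 for day 1 MmSCs against MuSCs, 31, 11 and 1 for mdx 7 against 2.5, 12.5 against 7 and 12.5 against 2.5 weeks, and 0 for Il1b-KO. The labels tie these libraries by number only, so whether equal numbers share an animal or a day is not known. Between day 1 MmSCs and day 1 MuSCs same-numbered libraries correlated at 0.122, 0.109 and -0.0152, which does not settle it. The block counts therefore say nothing on the strength of an effect.

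The mean summed level moved by more than its SD in a few groups. TMM scaling gave 64.55 CPM for the mix at 2 hours, 103.6 CPM at 8 hours, 24.9 CPM for Il-17A and 135.4 CPM for mdx at 12.5 weeks. Without Top2a and Mki67 it was 45.3, 102.9, 28 and 107.5 CPM in the same groups, 302.8 CPM for anti-Cxcl5 muscle, 1255.0 CPM for Il1b-KO and 1009.0 CPM for Il1b-WT. Groups hold at most 3 libraries, and in the Thy1.1 cells 5 of 35 members had counts enough to test.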
